A study of Homo sapiens with 48 samples.

Results

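The enzymes described here build and sulfate chondroitin sulfate: CSGALNACT1, CSGALNACT2, CHSY1, CHSY3, CHPF, CHPF2, CHST3, CHST11, CHST15 and XYLT1. Every probe set of the array whose annotation named 1 of these genes and no other was taken, which gave 20 probe sets of the 54675 on the array, for 10 of the 19775 genes with such a probe set. Of the 20, 14 probe sets of 8 genes had a mean signal above the filter of 75.4 and were tested, and 6 did not. The arrays were of the Affymetrix U133 Plus 2.0 type and the cells BEAS-2B, an immortalised human bronchial epithelial cell line, grown to confluence. The groups were Ind/GSK (indacaterol and GSK 256066 together, each at 10 nM), GS-5759 (10 nM) and vehicle, each for 1, 2, 6 and 18 h, with 4 arrays in each of the 12 groups. Indacaterol is a β2-adrenoceptor agonist, GSK 256066 an inhibitor of the phosphodiesterase PDE4, and GS-5759 a single molecule with both activities, so each treatment acts on the second messenger cAMP. All groups came from 1 cell line, and the labels do not say whether each replicate was its own culture; p-values here reflect only how far these samples spread, which may be technical.

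Chondroitin sulfate is a long chain of alternating glucuronic acid and N-acetylgalactosamine (GalNAc) attached to serines of core proteins such as versican and syndecans. XYLT1 places the first xylose of the linker, CSGALNACT1 and CSGALNACT2 add the first GalNAc that commits the linker to chondroitin rather than heparan sulfate, and CHSY1, CHSY3, CHPF and CHPF2 extend the chain. CHST11, CHST3 and CHST15 then add sulfate, and the chains fill the matrix and cell surface of airway epithelium, where they bind growth factors and other proteins.

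Both treatments raised CSGALNACT1 mRNA about 7-fold at 6 h, in 1 of its 2 probe sets, and raised CHSY1 mRNA by about 1.7-fold at 2 h and 1.24- to 1.26-fold at 6 h. CHST15 was about 1.4-fold above vehicle at 2 h. The CHSY1 calls at 6 h and the CHST15 calls at 2 h were lost with the compared groups fitted alone and with some single arrays left out. These calls held with the replicate number as a block. In the fit without a replicate block no other member passed the test in any comparison of a treatment with vehicle, and CSGALNACT1, CHSY1 and CHST15 were not called at 1 or 18 h. In the vehicle cells, both probe sets of CHPF2 were lower at 18 h than at 6 h. A probe set was called when its limma adjusted p (Benjamini-Hochberg over the 32768 probe sets tested) was below 0.05. In bulk RNA, fewer cells with a transcript and less transcript per cell cannot be told apart.

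The cells carried keratins KRT8 (signal 3110 to 6970) and KRT18 (5310 to 9220) on every array, and 6 of the 7 epithelial markers were tested. Other epithelial markers were lower or varied more between arrays. KRT7 ran from 246 to 10500 and CDH1 from 173 to 1530, and EPCAM averaged 104 (28.4 to 256). KRT19, the untested one, ran from 0.0029 to 4520. Summed epithelial markers ran from 10100 to 62700 with Ind/GSK, 9690 to 66300 with GS-5759 and 9110 to 61100 with vehicle. KRT5, also in this sum, ran from 108 to 36300. Of the 6 leukocyte markers 4 passed the filter, led by LYZ at a mean of 376, while PTPRC averaged 28.4. Of the 5 endothelial markers 2 passed, led by PECAM1 at 520, while CDH5 averaged 12.5. Summed leukocyte markers ran from 599 to 1080 with Ind/GSK, 692 to 932 with GS-5759 and 624 to 991 with vehicle, and summed endothelial markers from 626 to 860, 643 to 793 and 607 to 856 in Ind/GSK, GS-5759 and vehicle arrays. Summed signals of the 6 fibroblast markers ran from 7080 to 11200 with Ind/GSK, 7490 to 11200 with GS-5759 and 7840 to 11500 with vehicle, most of it COL1A1 (mean 9040), while the other 5 averaged 77.9 to 141. The log2 ratio of 3′ to 5′ ACTB probe sets, a sign of RNA quality, had medians of 0.01, 0.04 and 0.09 in Ind/GSK, GS-5759 and vehicle arrays, and that of GAPDH had medians of −0.13, −0.18 and −0.17. The part of these markers and ratios in the results was not tested. The 12 arrays numbered replicate 3 stood apart, with KRT5 signals of 29500 to 36300 against 108 to 277 on the other 36. Among the members, CHPF was lower on the array numbered 3 in all 12 groups (mean log2 difference −0.36), and CHST11 226368_at was higher in all 12 (0.38). Member calls that changed without these arrays are given with both values. For the other glycosaminoglycan genes reported by name, this was done where a call against vehicle changed. Arrays of the same number deviated together, so a fit with the replicate number as a block was also made. Its values are given where they change the call of a member. For the other glycosaminoglycan genes reported by name they are given where a call against vehicle changes.

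XYLT1, which starts the linker, had low signals. Its probe sets 213725_x_at and 232574_at had signals of 3.94 to 24.4 and 4.96 to 18.7 over the 48 arrays, and neither was tested. Their differences from vehicle lay between −0.19 and 0.31 on the log2(value + 16) scale over the 8 comparisons, a scale that understates changes of such low signals.

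CSGALNACT1 initiates the chondroitin chain and is known from mice for its part in cartilage development. At 6 h its probe set 219049_at gave signals of 1620, 684, 1240 and 909 with Ind/GSK (replicates 1 to 4), 1540, 795, 1070 and 895 with GS-5759, and 152, 116, 98.8 and 164 with vehicle. The 8 treated arrays at 6 h, between 684 and 1615, lay above all 40 other arrays of the series, which ran from 71.7 to 181, and with either treatment replicate 1 was highest and replicate 2 lowest. The log2 difference from vehicle was 2.88 ± 0.22 (SE, n = 4 each) for Ind/GSK, or 7.34-fold (95% interval 2.43 to 3.33 on the log2 scale, limma adjusted p = 3.59e-11). For GS-5759 it was 2.86 ± 0.22, or 7.24-fold (adjusted p = 4.55e-11). These calls held in every alternative fit and with each array left out in turn.

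At the other times this probe set was not called. At 1 h the mean signals were 136 ± 34.1 with Ind/GSK, 142 ± 13.5 with GS-5759 and 103 ± 23.5 with vehicle (SD, n = 4). At 2 h they were 139 ± 33.9 with Ind/GSK, 155 ± 23.3 with GS-5759 and 144 ± 35.9 with vehicle, and at 18 h 150 ± 30.7 with Ind/GSK, 152 ± 15.9 with GS-5759 and 128 ± 33.8 with vehicle. The 6 differences from vehicle had log2 values between −0.04 and 0.43 and adjusted p from 0.371 to 1. In the order of the 12 group means, Ind/GSK and GS-5759 at 6 h stood first (1110 ± 406 and 1080 ± 331) and did not differ beyond their spread, and the other 10 groups, from 155 down to 103, followed with neighbours that differed by less than the larger of their SDs. The response, averaged over both treatments, was larger at 6 h than at 2 h by 2.83 ± 0.27 log2 units (adjusted p = 2.87e-08) and smaller at 18 h than at 6 h by a difference of −2.63 ± 0.27 (adjusted p = 2.18e-07).

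The second CSGALNACT1 probe set, 1569387_at, did not follow. At 6 h it gave 122, 112, 120 and 102 with Ind/GSK, 105, 92.5, 104 and 100 with GS-5759, and 106, 115, 130 and 104 with vehicle. The 3 groups overlapped, and over all 48 arrays the signals ran from 77.7 to 156, not far above the filter. Its log2 differences from vehicle at 6 h were 0.01 ± 0.12 with Ind/GSK and −0.15 ± 0.12 with GS-5759 (adjusted p = 0.996 and 0.681). With both treatments pooled (8 arrays against 4), the responses of the pair of probe sets at 6 h were 2.87 and −0.07, a gap of 2.94. An exact two-sided permutation test gave p = 0.00404, the smallest that 8 against 4 allows, and 0.0539 after adjustment over the 40 pairs and times tested. That these probe sets disagree was known before the test, so its p is no separate support. At this smallest p the adjusted value depends on how many gaps reach it, not on their size. The test did not use the replicate numbers. With a pseudocount of 64 in place of 16, 4 of the 40 gaps passed, at an adjusted p of 0.0404. Which transcripts each probe set detects was not tested.

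**Figure D1:**
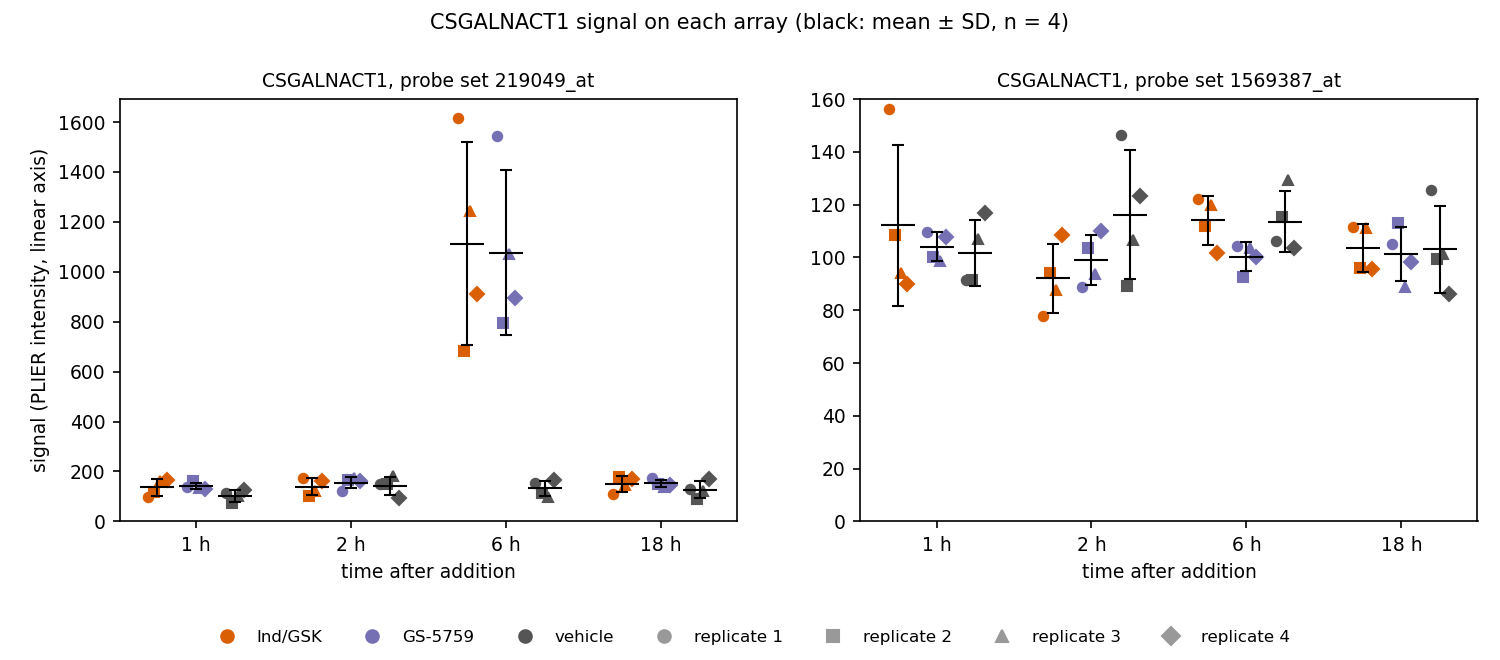
CSGALNACT1 signal (PLIER intensity, linear axes from 0, each panel with its own scale) on each array by time, for probe sets 219049_at (left) and 1569387_at (right). Points are arrays, their shape gives the replicate number, and black marks are means with SD (n = 4). The 8 treated arrays at 6 h stand at 684 to 1615 for 219049_at, while 1569387_at stays between 77.7 and 156 in every group.

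CSGALNACT2, the second enzyme that adds the first GalNAc, had 3 tested probe sets with mean signals of 1460 (218871_x_at), 966 (222235_s_at) and 308 (239077_at). None was called against vehicle at any time. The values nearest to the threshold were those of 239077_at at 2 h with GS-5759, where the log2 difference was 0.23 ± 0.07 (adjusted p = 0.0635), and the fit with the replicate block called it (adjusted p = 0.0201), as it did 8.22% of all probe sets. The probe sets did not move alike at 18 h. Pooled over both treatments, 218871_x_at differed from vehicle by −0.21, 222235_s_at by 0.05 and 239077_at by 0.14. Both gaps to 218871_x_at, −0.26 and −0.35, had exact permutation p = 0.00404 and adjusted p = 0.0539.

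CHSY1, a chain-extending enzyme with both the glucuronic acid and the GalNAc transferase activity, was highest at 2 h in both treatments. Its probe set 203044_at gave 4860, 3650, 4340 and 4220 with Ind/GSK at 2 h, 4690, 4390, 4470 and 4250 with GS-5759, and 2610, 2500, 2610 and 2490 with vehicle. Every treated array at 2 h was above every other array of the series, of which the highest was 3614. The log2 difference was 0.73 ± 0.08 for Ind/GSK, or 1.66-fold (adjusted p = 9.92e-08), and 0.80 ± 0.08 for GS-5759, or 1.74-fold (adjusted p = 1.42e-08; SE, n = 4 each). Both calls held in every alternative fit and with each array left out.

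At 6 h CHSY1 gave 3420, 2980, 3290 and 3260 with Ind/GSK, 3610, 3170, 2770 and 3260 with GS-5759, and 2680, 2400, 2410 and 2790 with vehicle. All Ind/GSK arrays were above the vehicle arrays, and the GS-5759 array numbered 3 lay within their range. The differences were 0.33 ± 0.08 for Ind/GSK (1.26-fold, adjusted p = 0.0148) and 0.31 ± 0.08 for GS-5759 (1.24-fold, adjusted p = 0.0368). Without the arrays numbered 3 they were 0.29 for Ind/GSK (adjusted p = 0.122) and 0.35 for GS-5759 (adjusted p = 0.0854). Fitted on the compared groups alone, neither was called (adjusted p = 0.206 and 0.28), nor was GS-5759 without the filter (0.0657) or after centring on the 75th percentile (0.0689). The Ind/GSK call was also lost without Ind/GSK replicate 1 or 3 or vehicle replicate 2 (adjusted p up to 0.0656), and the GS-5759 call without GS-5759 replicate 1, 2 or 4 or vehicle replicate 1, 2 or 3 (up to 0.201). With the block both were called, at 0.000499 and 0.00149, in comparisons where it called 14.6% and 9.11% of all probe sets.

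At 1 h CHSY1 averaged 2780 ± 298 with Ind/GSK, 2980 ± 283 with GS-5759 and 2490 ± 212 with vehicle (SD, n = 4), and at 18 h 2950 ± 158 with Ind/GSK, 3000 ± 98.4 with GS-5759 and 2820 ± 153 with vehicle. Neither time gave a call, although the block fit called GS-5759 at 1 h (log2 difference 0.26, adjusted p = 0.0366, against 0.394 without the block, with 1.14% of all probe sets called by the block fit). In the order of the 12 means, the 2 h treated groups came first, the 6 h treated groups next, and vehicle at 1, 2 and 6 h last, within 1 SD of each other. The pooled response grew by 0.56 ± 0.10 log2 units between 1 and 2 h (adjusted p = 0.00398) and fell by 0.44 ± 0.10 between 2 and 6 h (adjusted p = 0.0265). The second of these was not called without the arrays numbered 3 (−0.45, adjusted p = 0.116) or with the compared groups alone (−0.44, adjusted p = 0.0884), nor without vehicle replicate 2 or 4 at 2 h or replicate 1 or 4 at 6 h (up to 0.0923).

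CHST15 sulfates GalNAc residues that already carry a sulfate and so makes the highly sulfated chondroitin sulfate E. At 2 h its probe set 203066_at gave 1510, 1250, 1590 and 1140 with Ind/GSK, 1590, 1260, 1610 and 1160 with GS-5759, and 1040, 949, 1100 and 909 with vehicle. Every treated array was above the vehicle arrays, and within each of the 3 groups replicates 1 and 3 were above 2 and 4. The log2 differences were 0.44 ± 0.11 for Ind/GSK (1.36-fold, adjusted p = 0.0256) and 0.47 ± 0.11 for GS-5759 (1.39-fold, adjusted p = 0.0138; SE, n = 4 each). Without the arrays numbered 3 they were 0.41 for Ind/GSK (adjusted p = 0.0939) and 0.45 for GS-5759 (adjusted p = 0.0494). Fitted on the compared groups alone, neither was called (adjusted p = 0.257 and 0.183). Leaving out replicate 1 or 3 of the treated group, or vehicle replicate 2 or 4, also ended each call (adjusted p up to 0.156 for Ind/GSK and 0.0939 for GS-5759). With the block both were called, at 0.000678 and 0.000253.

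After 2 h CHST15 did not stay above vehicle. At 6 h it averaged 950 ± 59.9 with Ind/GSK, 1020 ± 107 with GS-5759 and 998 ± 111 with vehicle. At 18 h it gave 679, 790, 556 and 693 with Ind/GSK, 780, 767, 736 and 658 with GS-5759, and 893, 856, 857 and 805 with vehicle. The differences at 18 h, −0.33 ± 0.11 with Ind/GSK and −0.21 ± 0.11 with GS-5759, were not called (adjusted p = 0.528 and 1), and the block fit called the Ind/GSK one (adjusted p = 0.0487) and 1.36% of all probe sets. The other CHST15 probe set, 244874_at, had signals of 20.2 to 59 and was not tested.

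**Figure D2:**
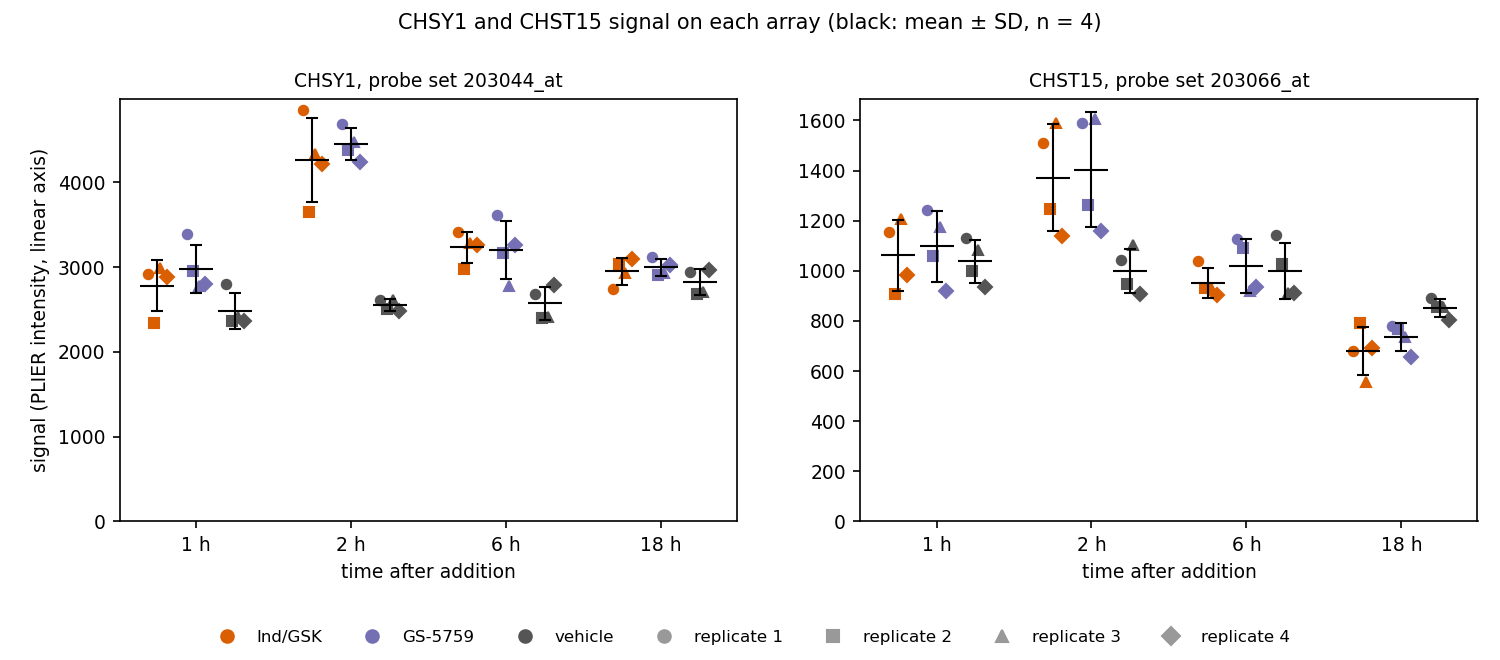
CHSY1 203044_at (left) and CHST15 203066_at (right) signal (PLIER intensity, linear axes from 0) on each array by time. Points are arrays, their shape gives the replicate number, and black marks are means with SD (n = 4). Both treated groups stand above vehicle at 2 h. CHST15 at 18 h lies at 556 to 790 in the treated arrays and at 805 to 893 in the vehicle arrays. Neither treatment was called there in the fit without a replicate block.

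CHPF, a polymerising partner of CHSY1, had signals of 349 to 696 and was not called in any comparison, with log2 differences from vehicle between −0.13 and 0.27. The promoters of CHSY1 and CHST15, which rose together at 2 h, are shown with 1 window of CHPF. CHPF did not pass the test, and the window shown was chosen because it held the full cAMP response element. They are RefSeq windows on GRCh38.p14 from 250 bases before to 50 after the gene start, 5′ to 3′ on the minus strand, at chr15:101251999-101252298, chr10:124093549-124093848 and chr2:219543760-219544059. The motifs searched were TGACGTCA, the palindromic cAMP response element, and its part TGACG, read on both strands, so that each full element also counts as the shorter motif on either strand. Capitals mark the matches.
CHSY1: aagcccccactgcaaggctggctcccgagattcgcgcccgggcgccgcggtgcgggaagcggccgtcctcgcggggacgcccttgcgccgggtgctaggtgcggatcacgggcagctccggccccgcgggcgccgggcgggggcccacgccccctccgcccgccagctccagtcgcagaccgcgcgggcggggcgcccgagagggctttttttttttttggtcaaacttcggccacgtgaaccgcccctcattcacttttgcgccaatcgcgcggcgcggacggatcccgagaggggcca
CHST15: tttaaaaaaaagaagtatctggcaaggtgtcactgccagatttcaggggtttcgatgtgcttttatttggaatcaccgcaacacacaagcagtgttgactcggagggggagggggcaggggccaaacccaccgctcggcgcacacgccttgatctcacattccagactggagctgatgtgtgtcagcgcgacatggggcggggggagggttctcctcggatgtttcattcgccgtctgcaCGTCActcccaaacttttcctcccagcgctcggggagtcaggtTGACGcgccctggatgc
CHPF: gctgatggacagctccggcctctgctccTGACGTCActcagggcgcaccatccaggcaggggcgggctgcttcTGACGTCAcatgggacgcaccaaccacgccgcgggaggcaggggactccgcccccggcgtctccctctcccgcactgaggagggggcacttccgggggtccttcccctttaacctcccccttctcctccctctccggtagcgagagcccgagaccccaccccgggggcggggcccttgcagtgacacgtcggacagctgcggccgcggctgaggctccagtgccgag
The CHPF window shown held 2 full elements, the CHST15 window 2 separate copies of the shorter motif and no full element, and the CHSY1 window neither. A second CHPF window, not shown, held 1 copy of the shorter motif and no full element. Among the 12 windows of the 9 member genes with an entry, 1 held the full element and 4 held the shorter motif. CSGALNACT1 had no entry. Over all 35116 windows of the same length the shares were 1.85% for TGACGTCA and 24.6% for TGACG. These matches describe the letters only.

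The remaining sulfotransferases showed smaller differences. CHST3, the chondroitin 6-sulfotransferase, had 3 tested probe sets (208252_s_at, 209834_at and 32094_at) with mean signals of 83.9, 396 and 596. They differed from vehicle by −0.25 to 0.14 log2 units and none was called. The block fit called 208252_s_at lower with Ind/GSK at 6 h (−0.25, adjusted p = 0.0261, against 0.154 without the block), in a comparison where it called 14.6% of all probe sets. CHST11, the chondroitin 4-sulfotransferase, had 1 tested probe set, 226368_at, whose differences at 6 h were 0.26 ± 0.21 with Ind/GSK and 0.34 ± 0.21 with GS-5759 (adjusted p = 0.686 and 0.555). Its other probe sets, 219634_at and 226372_at, averaged 40.5 and 60 and were not tested.

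CHSY3, another chain-extending enzyme, had 1 probe set with signals of 43.9 to 82.9, below the filter on average, and differences from vehicle of −0.13 to 0.07. The tested probe sets nearest to the filter were CHST3 208252_s_at at a mean of 83.9 and CHST11 226368_at at 94.6, and the untested ones nearest to it were CHSY3 242100_at at 62.5 and CHST11 226372_at at 60.

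Counted over the 14 tested probe sets, Ind/GSK had 0 called at 1 h (2.01% of all tested probe sets were called), 2 risen at 2 h (1.26% of all had risen), 2 risen at 6 h (0.873%) and 0 called at 18 h (0.0244%). GS-5759 had 0 called at 1 h (0.259%), 2 risen at 2 h (1.6%), 2 risen at 6 h (0.9%) and 0 called at 18 h (0%). At an unadjusted limma p below 0.05, 0, 6, 4 and 3 of the 14 differed with Ind/GSK at the 4 times, where 20.2%, 12.7%, 13.8% and 6.25% of all probe sets did. With GS-5759 the counts were 2, 4, 3 and 1, beside 4.51%, 12.2%, 12.2% and 3.17% of all. The median difference of the 14 was 0.09 with Ind/GSK and 0.13 with GS-5759 at 2 h, and 0.05 and 0.09 at 6 h, beside medians over all probe sets of −0.04, 0, −0.04 and 0. Both treatments were set against the same vehicle arrays, so their values are not separate evidence. With Ind/GSK at 1 h the median of all probe sets was −0.11, and 0.01 after centring each array on its 75th percentile, and no member was called at 1 h on either scale.

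**Figure D3:**
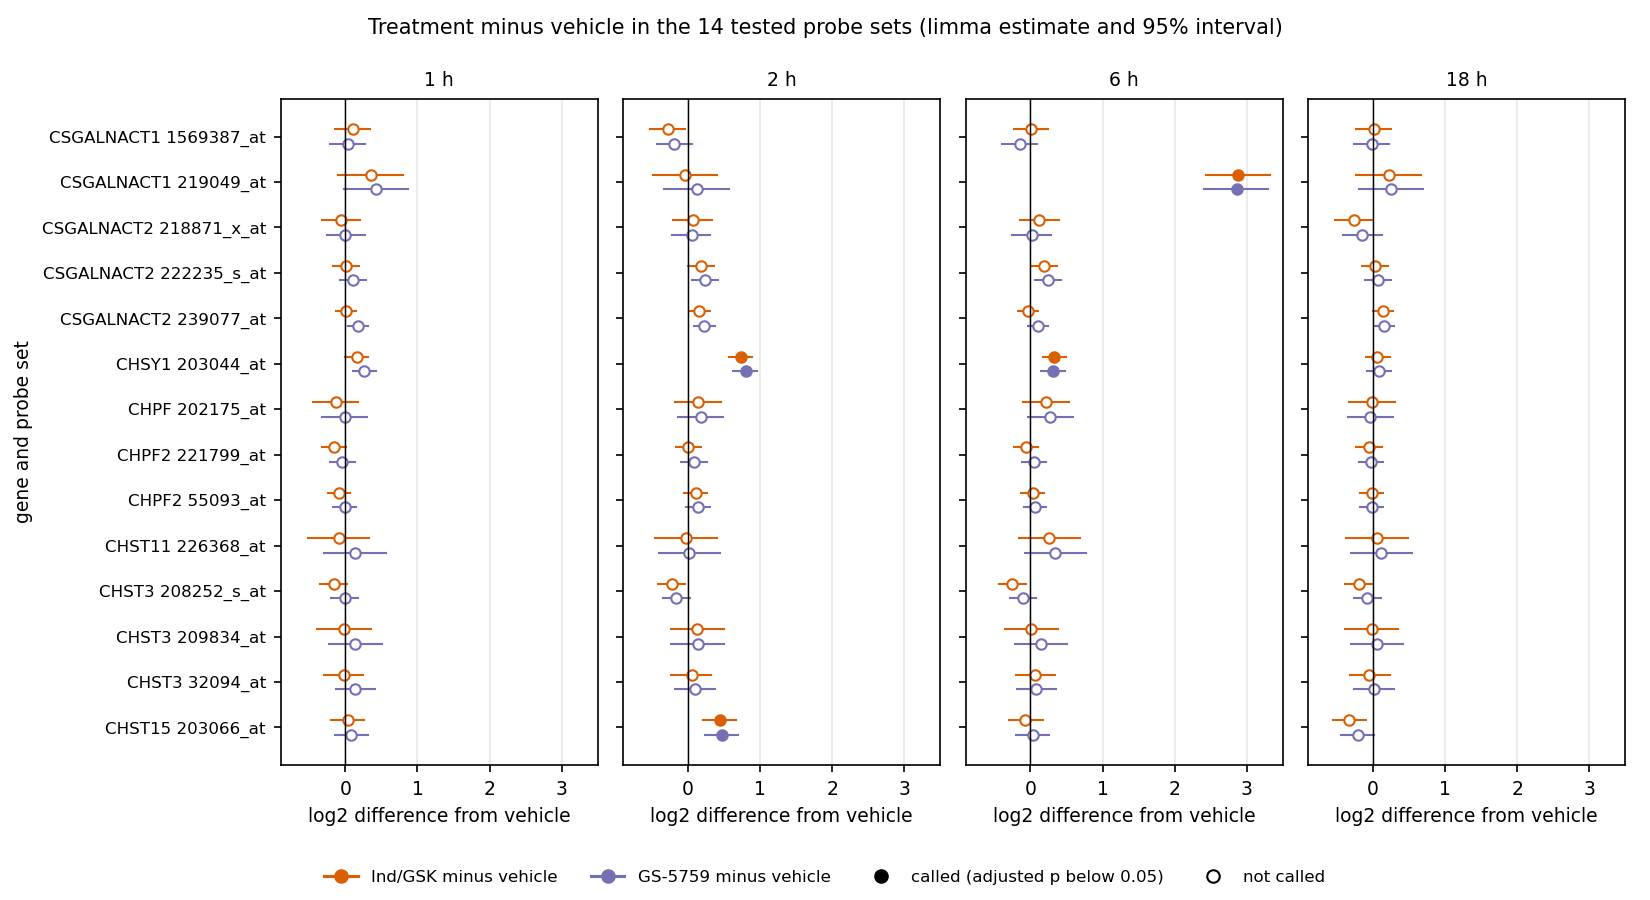
Differences from vehicle (log2 scale) in the 14 tested member probe sets at 1, 2, 6 and 18 h, with 95% intervals from limma (n = 4 arrays a group). Filled points were called at an adjusted p below 0.05. CSGALNACT1 219049_at at 6 h (2.88 and 2.86) stands apart from the other values, which lie between −0.33 and 0.80.

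GS-5759 and Ind/GSK, given at the same 10 nM, were also compared directly. The 14 differences ran from −0.07 to 0.22 at 1 h, −0.02 to 0.16 at 2 h, −0.16 to 0.15 at 6 h and −0.03 to 0.13 at 18 h. No member was called at any of the 4 times (0%, 0%, 0.00305% and 0% of all probe sets were), and 1, 0, 0 and 0 passed an unadjusted limma p of 0.05, beside 7.59%, 2.15%, 3.59% and 0.76% of all. For CSGALNACT1 219049_at at 6 h the difference was −0.02, with an interval from −0.47 to 0.43, and for CHSY1 at 2 h 0.07 with an interval from −0.10 to 0.23. Averaged over the 4 times, the differences lay between −0.04 and 0.12, 0 were called (0.488% of all) and 2 of 14 had an unadjusted p below 0.05 (19% of all). The block fit called those 2, CHST3 208252_s_at (0.12, adjusted p = 0.0322) and CSGALNACT2 239077_at (0.09, adjusted p = 0.0464), both higher with GS-5759. It called 17.5% of all probe sets there, and the median of all probe sets in that comparison was 0.06, or −0.01 after centring on the 75th percentile.

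Changes of the response over time, pooled over both treatments, gave 1 member risen between 1 and 2 h (0.195% of all had risen), 1 risen (0.171%) and 1 fallen (0.262%) between 2 and 6 h, and 1 fallen (0.186%) between 6 and 18 h. These are the CHSY1 and CSGALNACT1 values given above. The block fit added CHST15, whose response grew by 0.40 between 1 and 2 h (adjusted p = 0.031, against 0.3 without the block) and fell by 0.47 between 2 and 6 h (adjusted p = 0.00691, against 0.167). The block fit called 2.98% and 3.92% of all probe sets in these comparisons, in either direction.

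CHPF2, a chain-extending glucuronic acid transferase, was not called against vehicle at any time, but its signal was lower at 18 h than at the earlier times in all 3 treatments. Probe set 221799_at gave 225, 196, 216 and 219 with Ind/GSK at 18 h, 228, 197, 266 and 189 with GS-5759, and 235, 215, 220 and 223 with vehicle. At 6 h it gave 424, 411, 304 and 392 with Ind/GSK, 415, 442, 377 and 413 with GS-5759, and 430, 437, 340 and 387 with vehicle. All 12 arrays at 18 h, 189 to 266, were below the 36 earlier arrays, 301 to 442. In vehicle cells the difference between 18 h and 6 h was −0.79 ± 0.09 (0.58-fold, adjusted p = 8.05e-08). The second probe set, 55093_at, changed alike, with 274 to 353 on the 12 arrays at 18 h, 426 to 602 on the 36 earlier arrays, and a difference in vehicle cells of −0.69 ± 0.08 (0.618-fold, adjusted p = 1.64e-07).

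**Figure D4:**
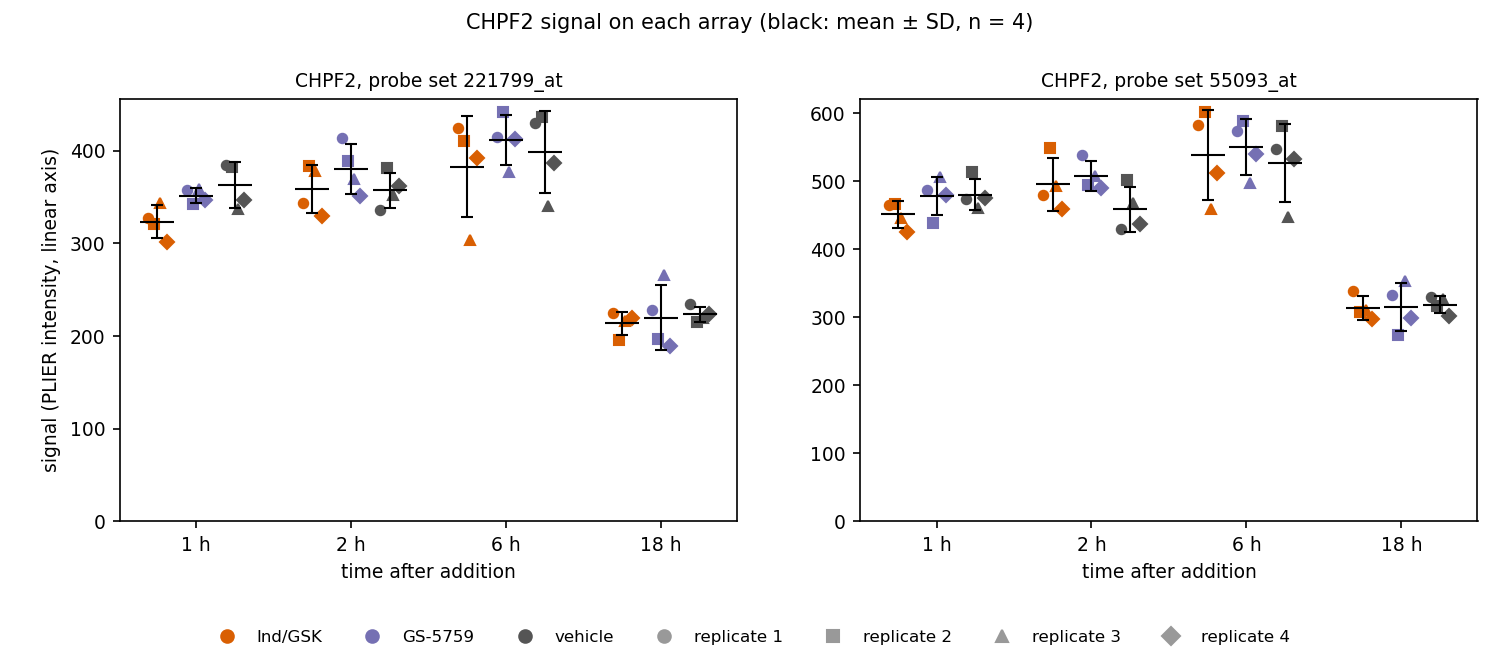
CHPF2 signal (PLIER intensity, linear axes from 0) on each array by time, for probe sets 221799_at (left) and 55093_at (right). Points are arrays, their shape gives the replicate number, and black marks are means with SD (n = 4). The 12 arrays at 18 h lie below the 36 earlier arrays in both panels, with or without a drug.

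Between 6 and 18 h in vehicle cells, 1 of the 14 members rose (7.86% of all probe sets had risen) and 2 fell (3.7%). The one that rose was CSGALNACT2 222235_s_at, by 0.28 ± 0.09 (1.21-fold, adjusted p = 0.0336). It was not called without the arrays numbered 3 (0.24, adjusted p = 0.162), nor without vehicle replicate 1, 3 or 4 at 18 h or replicate 2 or 3 at 6 h (up to 0.144). The call was also lost without the filter (0.28, adjusted p = 0.058), with centring on the 75th percentile (0.22, adjusted p = 0.0734) and with the compared groups alone (0.28, adjusted p = 0.142). The block fit also called CHST3 209834_at (0.23, adjusted p = 0.038) and 32094_at (0.23, adjusted p = 0.00215), and with them 27.3% of all probe sets. From 1 to 2 h and from 2 to 6 h no member was called in vehicle cells (2.86% and 0.247% of all were), and 0 and 1 passed an unadjusted limma p of 0.05, beside 18.6% and 8.97% of all.

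Other genes of glycosaminoglycan metabolism were taken as 8 lists of 90 genes, 1 probe set each, of which 71 were tested. Ind/GSK raised 3 of the 71 at 2 h and 3 at 6 h, and lowered 1 at 6 h; GS-5759 raised 4 at 2 h and 3 at 6 h. Among all 14409 genes tested, 1.26% had risen at 2 h and 0.93% at 6 h with Ind/GSK, where 2.32% had fallen at 6 h, and 1.58% and 0.951% had risen with GS-5759. The medians of the 71 at 2 and 6 h were 0.01 and 0 with Ind/GSK and 0.06 and 0.04 with GS-5759. None of the 71 was called at 1 or 18 h. Of all genes, 0.479% had risen and 1.35% had fallen with Ind/GSK at 1 h, and 0.257% and 0.0139% with GS-5759. At 18 h 0.0139% had risen and 0.0208% had fallen with Ind/GSK, and 0% with GS-5759. With the replicate block, tried for these lists after seeing the data, 6 of the 71 had risen at 2 h and 10 risen and 5 fallen at 6 h with Ind/GSK (3.56% of all genes had risen at 2 h, and 4.41% risen and 12% fallen at 6 h). With GS-5759 7 had risen at 2 h and 9 risen and 2 fallen at 6 h (5% of all risen at 2 h, and 5.61% risen and 4.17% fallen at 6 h).

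Of the donor supply list, 11 of 14 were tested. SLC26A2, the sulfate transporter whose loss impairs sulfation of cartilage proteoglycans, averaged 11600 ± 443 with Ind/GSK and 11200 ± 1130 with GS-5759 at 6 h, against 6550 ± 1270 with vehicle (SD, n = 4). The lowest treated array, 9846, was above the highest vehicle array, 7349. Its log2 difference was 0.84 (1.79-fold, adjusted p = 0.000365) with Ind/GSK and 0.79 (1.73-fold, adjusted p = 0.00111) with GS-5759 at 6 h. At 2 h it was 0.46 with Ind/GSK (adjusted p = 0.0795) and 0.60 with GS-5759 (adjusted p = 0.0124). The Ind/GSK difference at 2 h was called with the block (adjusted p = 0.000301) and without the arrays numbered 3 (0.41, adjusted p = 0.00211). Its other 2 probe sets were called with both treatments at both times. UGP2, which makes UDP-glucose, fell by 0.24 with Ind/GSK at 6 h (0.849-fold, adjusted p = 0.0118), with means of 5000 ± 276 with Ind/GSK and 5890 ± 431 with vehicle. Its second probe set differed by −0.02 (adjusted p = 0.983). With GS-5759 UGP2 differed by −0.14 (adjusted p = 0.271, and 0.0452 with the block).

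Of the heparan sulfate list, 15 of 21 were tested and HS6ST1, the heparan sulfate 6-sulfotransferase, alone was called. It averaged 1160 ± 207 with Ind/GSK and 1240 ± 197 with GS-5759 at 2 h, against 756 ± 30.1 with vehicle, differences of 0.59 (adjusted p = 0.0018) and 0.69 (adjusted p = 0.000213). At 6 h the differences were 0.57 with Ind/GSK (adjusted p = 0.00339) and 0.50 with GS-5759 (adjusted p = 0.0191), and without the arrays numbered 3 they were 0.41 and 0.44 (adjusted p = 0.0562 and 0.0573). Its second tested probe set was called with GS-5759 at 2 h (0.56, adjusted p = 0.0336) and not in the other 3 comparisons (0.43 to 0.49). Of the 14 tested core proteins, THBD (thrombomodulin, which can carry a chondroitin sulfate chain) rose at 2 h by 1.02 with Ind/GSK (2.02-fold, adjusted p = 0.00502) and by 1.20 with GS-5759 (2.29-fold, adjusted p = 0.000627), with means of 1360 ± 395 with Ind/GSK, 1560 ± 534 with GS-5759 and 653 ± 110 with vehicle. Its other 2 probe sets were also called with both treatments at 2 h. At 6 h the Ind/GSK difference of 0.66 was called with the block alone (adjusted p = 0.0223, against 0.103). So were the THBD differences at 1 h, 0.69 with Ind/GSK (adjusted p = 0.0189, against 0.0808) and 0.79 with GS-5759 (0.0381, against 0.211). The block called 2.32% and 0.979% of all genes risen in these 1 h comparisons. SDC4, a syndecan, was singled out after its values were seen. At 2 and 6 h it differed from vehicle by 0.40 and 0.26 with Ind/GSK and 0.46 and 0.31 with GS-5759. None was called (adjusted p = 0.233, 0.517, 0.15 and 0.434). Each was called without the arrays numbered 3 (0.000737, 0.0186, 5.31e-05 and 0.00255) and with the block (7.17e-05, 0.00661, 6e-06 and 0.00225). The block also called GS-5759 at 1 h (0.27, adjusted p = 0.0343).

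Of the 11 tested genes of glycosaminoglycan breakdown, CEMIP2, linked to hyaluronan breakdown at the cell surface, was called. It averaged 2340 ± 90.8 with Ind/GSK and 2290 ± 151 with GS-5759 at 2 h, against 1130 ± 103 with vehicle, differences of 1.04 (adjusted p = 1.72e-06) and 1.01 (adjusted p = 2.17e-06). At 6 h they were 0.72 with Ind/GSK and 0.71 with GS-5759 (adjusted p = 0.000935 and 0.00154). None of the 6 linker genes, the 7 other chondroitin and dermatan sulfate modifying genes, the 6 other carbohydrate sulfotransferases or the 1 tested hyaluronan synthase was called against vehicle without the block. UST, a uronyl sulfotransferase singled out after its values were seen, had differences of 0.90 with Ind/GSK and 0.86 with GS-5759 at 6 h (adjusted p = 0.392 and 0.464, and 0.00133 and 0.00309 with the block), with arrays of 125 to 822 with Ind/GSK, 129 to 681 with GS-5759 and 90.2 to 262 with vehicle.

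**Figure D5:**
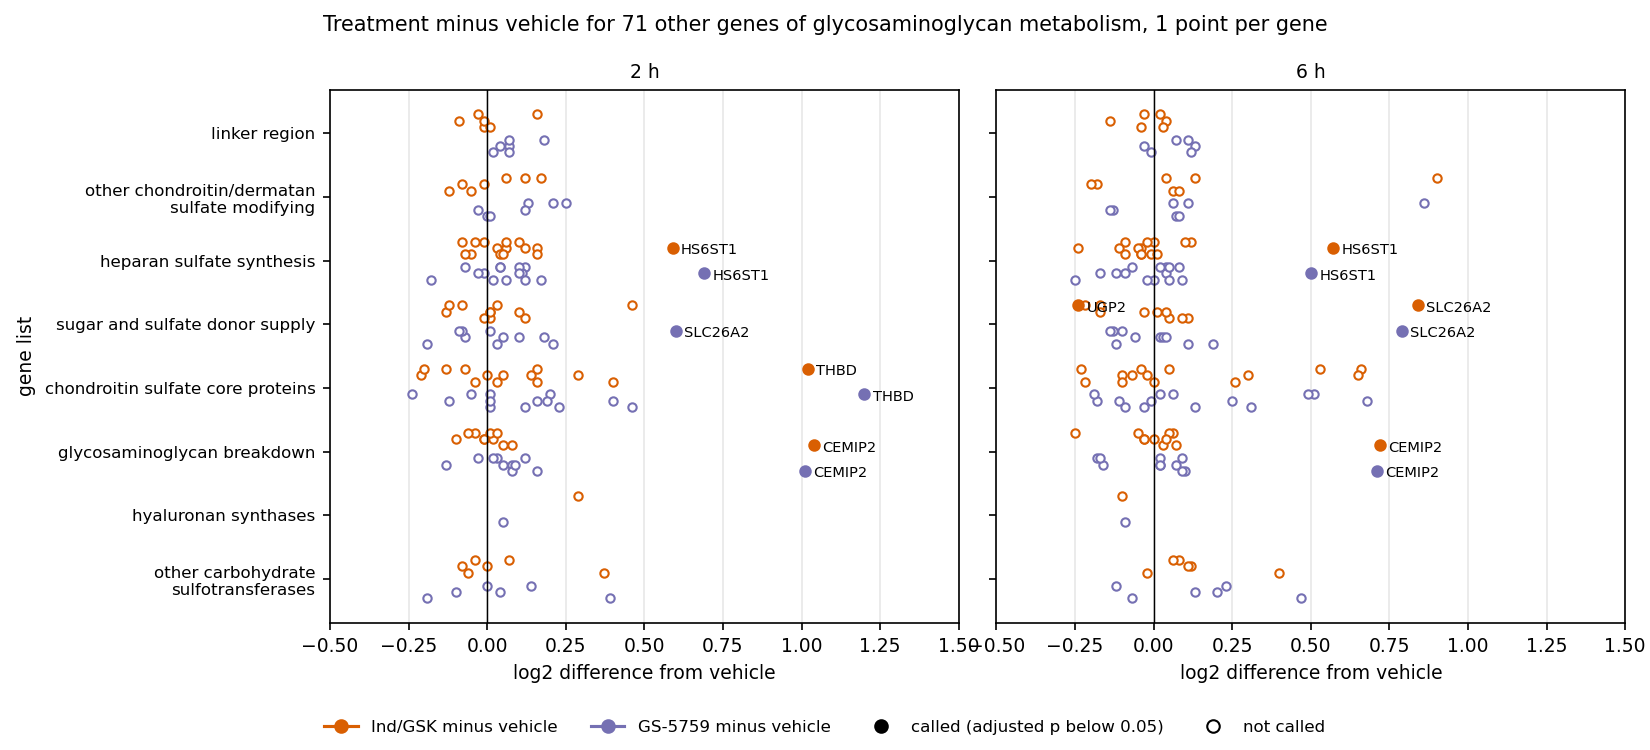
Differences from vehicle (log2 scale) at 2 h and 6 h for the 71 tested genes of the 8 other lists, 1 point per gene and treatment, with Ind/GSK above GS-5759 in each list. Filled, named points were called at an adjusted p below 0.05. HS6ST1, THBD, CEMIP2 and SLC26A2 rose and UGP2 fell.

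In vehicle cells the linker list changed between 6 and 18 h in 2 of 6 genes. XYLT2, the second xylosyltransferase, rose by 0.39 (1.31-fold, adjusted p = 0.00385) and FAM20B, the xylose kinase of the linker, by 0.33 (1.26-fold, adjusted p = 0.0242), which was not called without the arrays numbered 3 (0.31, adjusted p = 0.095). UXS1, which makes UDP-xylose, rose by 0.43 (1.34-fold, adjusted p = 0.0089). Over all genes 7.93% had risen in that interval. Between 1 and 2 h XYLT2 fell by 0.36 in vehicle cells (0.778-fold, adjusted p = 0.0277), where 1.69% of all genes had fallen.

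Of 9 genes known to respond to cAMP, among them NR4A1, PDE4D and CREM, all 9 were called risen at 2 h with both treatments. They rose by 0.43 to 5.46 log2 units with Ind/GSK and 0.47 to 5.53 with GS-5759. Of all genes 1.26% and 1.58% had risen there. At 1 h 5 of the 9 had risen with each treatment (0.479% and 0.257% of all). At 6 h 5 had risen with Ind/GSK and 3 with GS-5759 (0.93% and 0.951%), and at 18 h 0 with either (0.0139% and 0%). The list was chosen with earlier results of these data known, so it is no independent check. The genes whose 12 group means were most like those of CSGALNACT1 219049_at, of 14401 genes, were NCKAP5 (Pearson r = 0.974), NETO1 (0.974), ANTXR1 (0.973), ITPR1 (0.972) and SH3RF3 (0.964). NETO1 encodes an accessory protein of glutamate receptors, ANTXR1 an anthrax toxin receptor that binds collagen, and ITPR1 a calcium channel of the endoplasmic reticulum. At 6 h their differences from vehicle were 1.40, 1.23, 0.50, 0.88 and 0.72 with Ind/GSK and 1.24, 1.18, 0.55, 0.90 and 0.80 with GS-5759, in that order of genes. The genes share the same 48 arrays, and this likeness over 12 points is a description, with no test.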

How the data were processed

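Gene expression had been measured in 48 samples of the BEAS-2B cell line, 1 Affymetrix U133 Plus 2.0 array each. The authors deposited probe set intensity values on a linear scale, for which the submitters' processing notes name PLIER and Affymetrix Expression Console. The versions and the normalization between arrays are not given in the sources used here. The number of arrays, not a read depth, limits the precision.

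Values were used as deposited and analysed as log2(value + 16) with limma 3.58.1 (R 4.3.3). One model with a mean for each of the 12 groups was fitted over all 48 arrays to the 32768 probe sets whose mean log2(value + 16) was above the 40th percentile (corresponding to a signal of 75.4), without a block. Contrasts were tested with eBayes, adjusted by Benjamini-Hochberg within each of 19 comparisons, and called at an adjusted p below 0.05. The fit was tested on simulated data with independent noise on each array and no replicate effect. That test therefore does not cover the shared deviation of same-numbered arrays. The difference between probe sets of a gene was tested by an exact two-sided permutation test over 8 treated and 4 vehicle arrays. Fold changes are on the log2(value + 16) scale.

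Groups, times and replicate numbers came from the sample titles. Same-numbered arrays of compared groups deviated together (all 60 pairs correlated at 0.16 to 0.91, other-numbered arrays at −0.81 to 0.69), which is why the fit with the replicate number as a block is given. Symbols came from GEO's platform annotation, updated through RefSeq gene identifiers: 41097 probe sets had 1 symbol (41043 matched), 1801 several and 11721 none. The members and the gene lists were chosen with earlier results of these data known. Values of each array are given for member probe sets called against vehicle, for both CSGALNACT1 probe sets and, chosen after seeing the values, for 1 of CHPF2. List genes are represented by their brightest probe set with 1 symbol, and up to 3 called genes of a list are named. The 5 genes most like CSGALNACT1 were chosen by Pearson correlation over the 12 group means. Some genes of these lists are not reported here. Alternatives covered the pseudocount, the filter, the brightest probe set per gene, centring, quantile normalization, the block, eBayes with trend, the compared groups alone, each array left out and, chosen after seeing the data, all arrays numbered 3 left out.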

Additional observations from a re-analysis of the deposited data

Results flagged for a closer look

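CHSY1 at 1 h had a single array apart from the others in 2 groups. Ind/GSK replicate 2 gave 2340, against 2880 to 2990 on the other 3 arrays, and vehicle replicate 1 gave 2800, against 2360 to 2410. Of 48 groups checked over 4 probe sets these 2 were found, and chance finds about 1 in 20 such groups.

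The responses that differed between times by their own test were those of CHSY1, by 0.56 between 1 and 2 h and −0.44 between 2 and 6 h, and of CSGALNACT1 219049_at, by 2.83 between 2 and 6 h and −2.63 between 6 and 18 h (log2 units, later minus earlier).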

How the results depend on the processing

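Of 194 recomputed counts of called members over the comparisons and the probe set gaps, 176 stayed within 1.5 times the reported count and 18 moved. No result was reversed. With the replicate number as a block, the count was 1 for Ind/GSK at 18 h and 1 for GS-5759 at 1 h (0 without), 2 for GS-5759 minus Ind/GSK over the 4 times (0 without), 2 for the change of response from 1 to 2 h (1 without) and 5 for vehicle at 18 h minus 6 h (3 without). The block changed no other count of members by over 1.5 times. It called 1.36%, 1.14%, 17.5%, 2.98% and 27.3% of all probe sets in these 5 comparisons, against 0.0244%, 0.259%, 0.488%, 0.211% and 11.6% without it. Of the 71 genes of the other lists it called 6, 6, 15 and 2 with Ind/GSK at 1, 2, 6 and 18 h (0, 3, 4 and 0 without). With GS-5759 it called 2, 7 and 11 at 1, 2 and 6 h (0, 4 and 3 without). In vehicle cells it called 12 from 1 to 2 h, 3 from 2 to 6 h and 22 from 6 to 18 h (1, 0 and 3 without). For GS-5759 minus Ind/GSK over the 4 times it called 5 risen and 1 fallen (13.9% and 1.31% of all genes), against 0 without it. For the change of response from 1 to 2 h it called 2 risen (2.05% of all genes), against 1 without it. Of all genes it called 2.32% risen and 15.4% fallen with Ind/GSK at 1 h, 0.423% and 1.08% at 18 h, and 0.979% and 0.291% with GS-5759 at 1 h. Shares at 2 and 6 h are given with the lists above. In vehicle cells the shares were 3.42% and 12.2% from 1 to 2 h, 3.2% and 1.33% from 2 to 6 h, and 19.1% and 9.29% from 6 to 18 h. For the change of response from 6 to 18 h the block called 1 of the 71 risen and 5 fallen (2.36% and 2.57% of all), against 1 fallen without it. With the arrays numbered 3 left out, an alternative chosen after seeing the data, the count of members was 1 in place of 2 for Ind/GSK at 2 h, for both treatments at 6 h and for the change of response from 2 to 6 h. Of the 71 other genes, 5 in place of 3 had then risen with Ind/GSK at 2 h (1.51% of all genes). In vehicle cells from 1 to 2 h 2 in place of 1 had fallen (3.5% of all), and in the response from 6 to 18 h 3 in place of 1 (0.305%). With the compared groups fitted alone the count of members was 1 in place of 2 for both treatments at 2 h and 6 h and for the change of response from 2 to 6 h. For GS-5759 at 6 h it was also 1 without the filter and with centring on the 75th percentile. With the brightest probe set per gene, vehicle at 18 h minus 6 h had 1 in place of 3. A pseudocount of 64 gave 4 probe set gaps past the threshold, against 0. Leaving out each array in turn gave 1 to 2 calls for each treatment at 2 h and at 6 h and for the change of response from 2 to 6 h, and 2 to 3 for vehicle at 18 h minus 6 h. The causes were not tested. Signals near the filter, such as those of CHST11 and CSGALNACT1 1569387_at, limit what a change there can show, and the widest 95% interval of a member against vehicle was ± 0.45.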
